A study of Caenorhabditis elegans with 2 samples.

Results

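The gene icl-1 lies on chromosome V at 724332 to 728004 of build ce11 (the coordinates of WBcel235), on the minus strand. Here 9 of the 1604 regions in the optimal peak list for the tagged protein Y55F3AM.14 had their summit in this gene or within 10 kb of it. The gene and its regions were chosen by those scores and positions, so their number and strength are described here without a test. The optimal list keeps regions that passed a threshold on reproducibility between replicates. In the same 23673 bp window the pooled list, which holds background as well as peaks, had 17 of its 29629 regions, the list of replicate 1 had 15 of 29577, and that of replicate 2 had 15 of 28681. The summits of the 9 optimal regions spanned 7486 bp, with gaps between regions. The span starts just downstream of icl-1, runs across its coding exons and ends inside the neighbouring gene srh-2.

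The data are from chromatin immunoprecipitation with sequencing, using an anti-GFP antibody, of whole L2 larvae. The 2 samples were biological replicates of 1 group, and there was no group of another strain or stage. Both were of strain OP608, which is mutant for unc-119 (allele tm4063) and carries the integrated transgene wgIs608, with Y55F3AM.14 fused to TY, EGFP and 3xFLAG tags and a wild-type unc-119 marker. Larvae of mixed sex, synchronised by bleaching and L1 starvation, were taken at 42 hours. The strain is 1 transgenic line that carries the tagged copy in addition to the gene's own locus. Many animals were pooled for each sample, so the cells from which a region came cannot be told apart. RefSeq names Y55F3AM.14 as znf-782, which encodes a protein with C2H2-type zinc fingers.

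The product of icl-1 is known as a single protein with both enzyme activities of the glyoxylate cycle, isocitrate lyase and malate synthase. The cycle bypasses the steps of the TCA cycle that release carbon dioxide and so lets carbon from stored fat be used to make carbohydrate. In C. elegans it is known for its role in embryos, in larvae without food and in the dauer stage. The protein-coding genes around icl-1 belong to large families: fbxb-72 encodes an F-box protein, and srh-2, srbc-40, srj-24 and srj-25 encode serpentine receptors of the chemoreceptor families.

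The regions are numbered 1 to 9 from left to right along the chromosome, which for icl-1 runs from its end to its start. Their places are given here by the summit. Regions 1 and 2 lay between the end of icl-1 and the start of fbxb-72, which are 380 bp apart. Region 1 as a whole, from 723927 to 724114, also covered the fbxb-72 start at 723952. Regions 3, 4 and 5 lay in coding exons of icl-1. Regions 6, 7 and 8 lay in an intron of the 2 srh-2 transcripts, of 10, that start at its upstream exon. Region 9 lay in an untranslated exon of 1 srh-2 transcript. Regions 1, 2 and 5 were 188, 120 and 118 bp wide, and the other 6 had the caller's usual width of 424 bp.

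**Figure D1:**
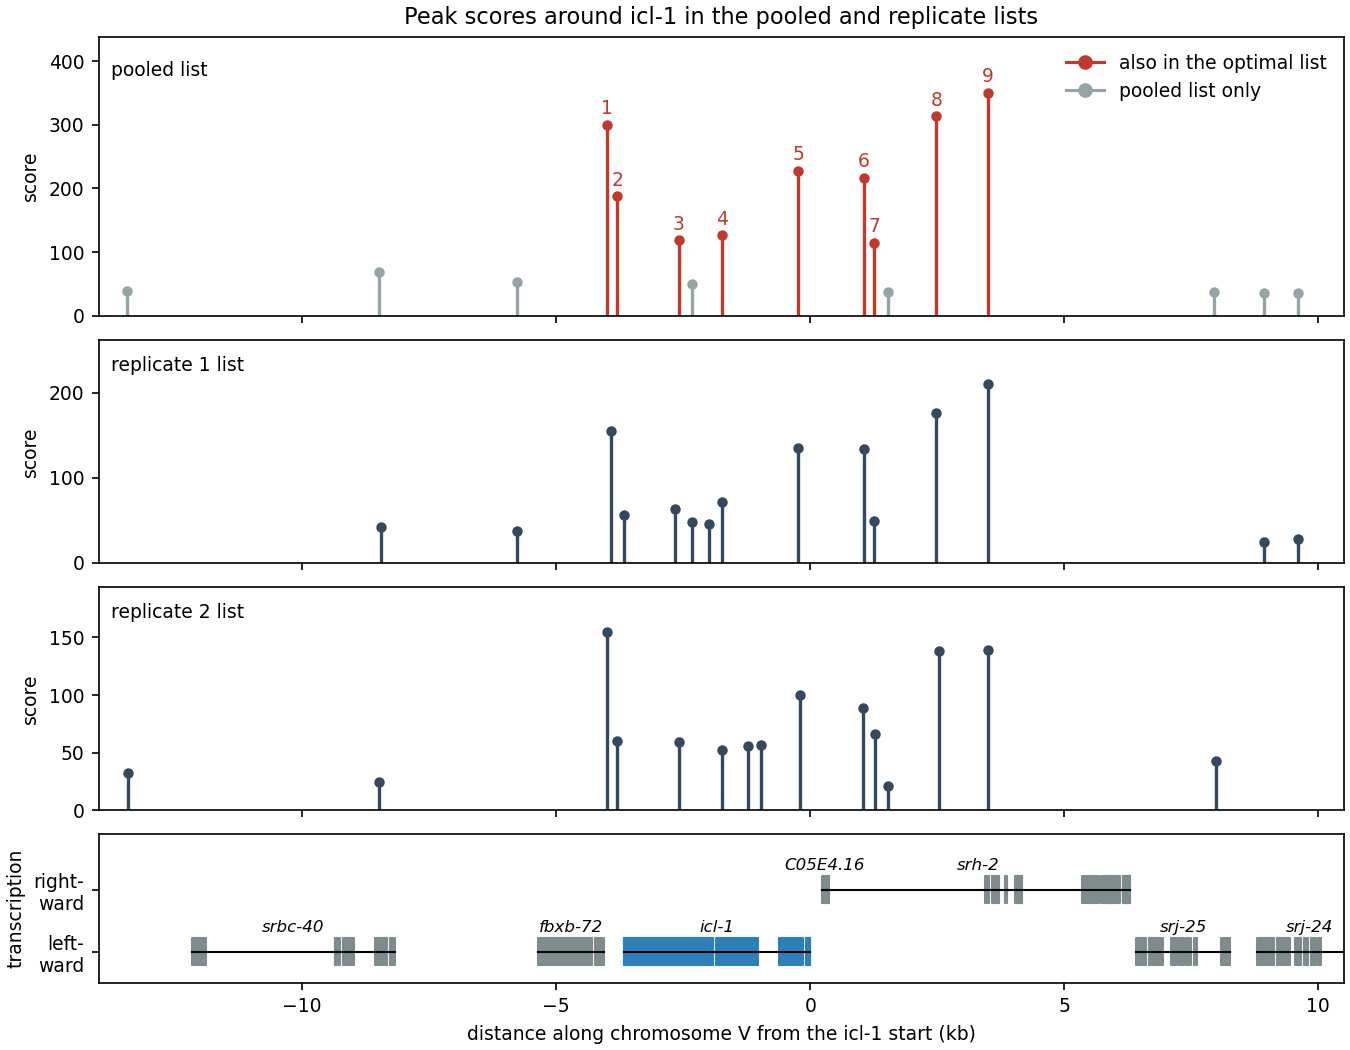
Scores of every region with a summit in icl-1 or within 10 kb of it, in the pooled list (red where also in the optimal list, numbered 1 to 9) and in each replicate list, against the distance along chromosome V from the icl-1 start in kb, with exons as boxes below. The summits of the 9 optimal regions stand between 3996 bp left and 3490 bp right of the icl-1 start, and pooled regions outside the optimal list reach at most 69.43.

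Of these, 5 regions are shown as sequence. The 3 in coding exons of icl-1 are given because coding sequence held few optimal regions elsewhere, and region 8 and part of region 9 because they had the highest scores of the cluster. All are the plus strand of ce11 from the RefSeq genome sequence, 5′ to 3′, opposite to the icl-1 message. Windows span 75 bp on each side of the summit, and region 9, which is untranslated, is limited to 30 bases. Capitals mark the hexamer GAGAGA, the pentamer GACGC or the palindrome CACGTG on either strand, which are described further on.

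Region 3 (V:725340-725490): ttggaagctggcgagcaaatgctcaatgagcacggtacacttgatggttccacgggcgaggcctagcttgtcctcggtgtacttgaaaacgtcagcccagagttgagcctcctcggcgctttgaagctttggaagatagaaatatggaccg
Region 4 (V:726198-726348): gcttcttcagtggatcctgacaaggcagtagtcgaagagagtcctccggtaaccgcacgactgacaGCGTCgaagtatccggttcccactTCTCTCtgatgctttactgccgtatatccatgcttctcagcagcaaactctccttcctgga
Region 5 (V:727693-727843): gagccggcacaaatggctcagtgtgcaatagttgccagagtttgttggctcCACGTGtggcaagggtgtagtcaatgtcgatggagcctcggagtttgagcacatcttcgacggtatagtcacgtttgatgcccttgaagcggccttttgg
Region 8 (V:730411-730561): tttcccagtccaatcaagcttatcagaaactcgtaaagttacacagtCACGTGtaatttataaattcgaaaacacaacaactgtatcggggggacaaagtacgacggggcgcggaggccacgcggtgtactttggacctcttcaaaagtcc
Region 9 (V:731481-731510): cacgcgagacgaagaGACGCcgggcagcac

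Scores are the signal values of the authors' peak caller. They are read within a list, and those of the replicate lists are set side by side as the caller gave them, with no scaling to depth. Ranks count from 1 for the highest score. Region 1 (V:723927-724114) scored 300.4 in the pooled list, rank 156, with 155.3 in replicate 1 and 155.2 in replicate 2. Its summit lay 56 bp upstream of the start of fbxb-72 and 3996 bp downstream of that of icl-1. The replicate scores of this region were nearly the same. Region 2 (V:724123-724242) followed 200 bp to the right with a pooled score of 188.1, rank 469. It scored 59.87 in replicate 2 and had no summit within 100 bp in replicate 1. The replicate 1 list instead held a summit at 3675 bp downstream of the icl-1 start, score 56.55, which had no optimal summit within 100 bp, and its summit for region 1 was shifted by 77 bp towards region 2. The deposited lists therefore did not place the second summit of this pair at the same position in both replicates.

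Coding exons of icl-1 held 3 of the 9 optimal summits. Over all optimal regions, 97 summits (6.05%) lay in a coding exon, and among weaker regions, the 27586 pooled regions that overlap no optimal region, 31.4% did. Region 3 (V:725203-725626) lay in the fourth exon, 2589 bp downstream of the start, with a pooled score of 118.4 and 63.83 and 58.81 in replicates 1 and 2. Region 4 (V:726061-726484), in the third exon, had a pooled score of 126.8 and replicate scores of 71.22 and 52.62. Region 5 (V:727754-727871) was the highest of the 3, with a pooled score of 228.0 at rank 309 and replicate scores of 134.9 and 100.2. Its summit lay in the second exon, 236 bp downstream of the icl-1 start at 728004 and 225 bp downstream of the start of the other transcript at 727993. Among the 97 coding-exon summits, regions 5, 4 and 3 ranked 4, 48 and 65 by score. In the whole optimal list of 1604, regions 4 and 3 ranked 1176 and 1371, in its lower part, where the lowest score was 110.3. The 97 summits lay in 94 genes, and icl-1 was the one gene with 3 of them.

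The remaining 4 optimal summits lay to the right of the icl-1 start, within the span of srh-2, which is transcribed in the opposite direction. Its first start lies 297 bp from that of icl-1. Only 2 of the 10 srh-2 transcripts start at this upstream exon. The others start at 731646 or 731882, to the right of all 9 summits. For those transcripts, regions 6, 7 and 8 lay upstream of the start. The srh-2 transcript with the first start has a first intron of 4975 bp, and regions 6, 7 and 8 lay in it. Region 6 (V:728847-729270) scored 216.7 in the pooled list, with 134.0 and 88.64 in the replicates, at 1055 bp upstream of the icl-1 start. Region 7 (V:729047-729470), 200 bp further, scored 114.7, with 48.91 in replicate 1 at rank 3421 and 66.41 in replicate 2 at rank 957. It was the lowest of the 9. Among the regions with a summit within 100 bp in both replicate lists, it alone scored lower in replicate 1 than in replicate 2. Regions 6 and 7 overlap, and like regions 1 and 2 they stood closer than the usual region width. Such neighbours may not be separate sites, since chromatin was sheared to 200 to 800 bp.

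The strongest pair of the cluster lay farthest from icl-1 on the srh-2 side. Region 8 (V:730274-730697) scored 313.2 at rank 131, with 176.0 and 138.4 in the replicates, 2482 bp upstream of the icl-1 start. Region 9 (V:731282-731705) scored 350.8 at rank 95, with 210.0 and 138.9, at 3490 bp upstream. Of the 10 srh-2 transcripts, 1 has an untranslated exon at its summit. The summit also lay 152 bp upstream of 731646, where other srh-2 transcripts start, and 3193 bp downstream of the first srh-2 start at 728301. Region 9 was thus upstream of srh-2 or internal to it, depending on the transcript.

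Pooled scores in the cluster ran from 114.7 to 350.8, with a median of 216.7 against 150.2 for all 1604 optimal regions. Of the 9, 6 were in the top 500 of the pooled list. The lowest lay close to the list's own minimum of 110.3. Below that threshold, the highest of the other 8 pooled regions in the window scored 69.43 and the lowest 36.09. In this window 9 of 17 pooled regions were thus optimal, where 5.41% were over the whole pooled list, and this share follows from how the locus was chosen. At the edges of the window, the pooled regions just inside scored 38.48 at 9781 bp and 36.09 at 9601 bp from the gene, and those just outside 37.43 at 14435 bp and 76.74 at 14248 bp.

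Both replicate lists held a matching summit, at most 100 bp away, for 8 of the 9. Over the whole optimal list 94.6% were matched, a share that partly follows from how the optimal list was made. With the match tightened to 50 bp it was 5 of 9, and within 200 bp it was 9 of 9. Among the 8, the score was higher in replicate 1 for 7, and for all optimal regions in both lists it was higher in 1127 of 1517. The ratio of the replicate 1 to the replicate 2 score ran from 0.736 for region 7 to 1.51 for regions 6 and 9, with a median of 1.31. The median over all 1517 was 1.2, with a 5th percentile of 0.7 and a 95th of 2.02, so the 8 ratios lay inside that range. With 2 replicates of unknown depth no error is given. Spearman's rho between the replicate scores was 0.833 over these 8 regions and 0.589 over the 1517. All regions share the same libraries and control, and regions 6 and 7 overlap.

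**Figure D2:**
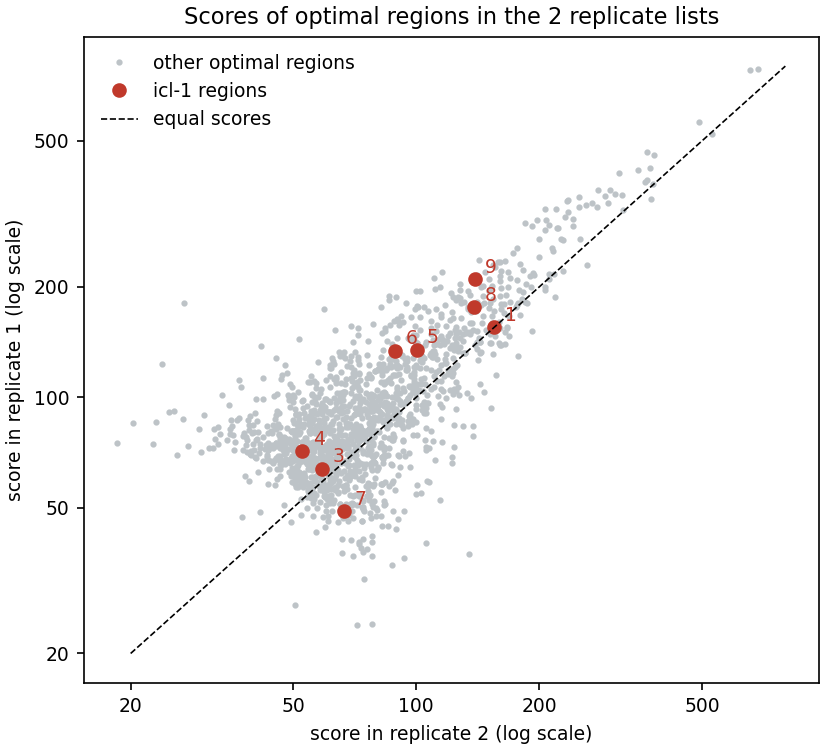
Score in replicate 1 against score in replicate 2, both on log scales, for optimal regions matched within 100 bp in each replicate (grey) and the 8 at icl-1 (red, numbered), with a dashed line at equal scores. Of the 8, 7 lie on or above the line and region 7 lies below it.

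Each replicate list also had summits in icl-1 that the other lacked. Replicate 1 had one at 2330 bp downstream of the icl-1 start (score 48.36, also a pooled region at 49.6) and one at 1986 bp (46.03). Replicate 2 had one at 1224 bp (55.59), in a coding exon, and one at 975 bp (56.57), in an intron. The last 3 had no pooled summit within 100 bp. These scores were below those of every coding-exon optimal region in the same list except region 4 in replicate 2. Taking the 1604 highest regions of 1 replicate in place of the optimal list, replicate 1 placed 7 summits in the window and replicate 2 placed 10.

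The cluster was compared with all other places in the genome by the same counting. Of 19971 protein-coding genes, 4 (0.02%) had at least 9 optimal summits in the gene or within 10 kb: icl-1, its neighbours fbxb-72 and srh-2, which share the same 9, and T28B11.1. The highest count was 9, the median 0, and 74.9% of genes had none. With the 1604 highest regions of replicate 1 in place of the optimal list, 12 genes had at least as many as icl-1, which then had 7. With those of replicate 2, 3 genes did: icl-1, fbxb-72 and srh-2. These settings change both the list and the replicates behind it, and the part of each was not tested. Per kb of window, fbxb-72 with 0.422 and icl-1 with 0.38 summits had the highest densities.

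**Figure D3:**
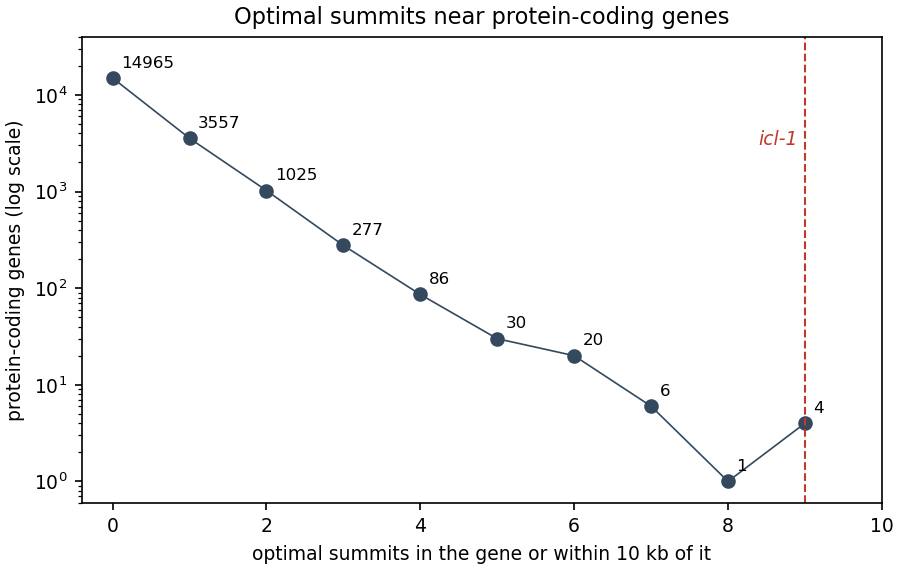
Number of protein-coding genes, on a log scale, by the number of optimal summits in the gene or within 10 kb of it. The dashed line marks icl-1 among the 4 genes at 9, while 14965 genes have none.

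The cluster was also compact. Among all 1556 runs of 9 neighbouring optimal summits on a chromosome, that at icl-1 had the shortest span, 7486 bp. The shortest run elsewhere spanned 17760 bp, at T28B11.1. Gaps between neighbouring summits at icl-1 ran from 200 to 1495 bp with a median of 1108 bp, against 31690 bp over all optimal summits. The next optimal summit lay 96649 bp to the left and 272447 bp to the right. When summits closer than 424 bp, the usual region width, to the one before were counted once, a setting chosen after seeing the data, 7 remained at icl-1, still with the shortest span for that number, and the shortest elsewhere was 10197 bp. Chromosome V as a whole had 14.4 optimal regions per Mb.

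The 5 genes with the most optimal summits by the same window, 1 per locus, were T28B11.1 with 9, saeg-1 with 8, and ppfr-1, mnk-1 and din-1 with 7 each. T28B11.1 encodes an F-box protein, saeg-1 a suppressor of activated EGL-4, ppfr-1 a regulatory subunit of protein phosphatase 4, mnk-1 a MAP kinase-interacting kinase and din-1 a DAF-12-interacting protein. These genes were 12.6 to 25.9 kb long, while icl-1 was 3.67 kb, and their summits spread over 10.7 to 22.6 kb. The strongest region made up 23.7% to 37.4% of their summed scores and 17.9% of the summed score of 1957 at icl-1. Such a share tends to be lower where more regions are summed. T28B11.1, which also had 9, had a share of 32.4%. Only T28B11.1 and mnk-1 among the 5 had a summit in a coding exon, 1 each, against 3 at icl-1. These differences are descriptions of places picked by their counts.

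**Figure D4:**
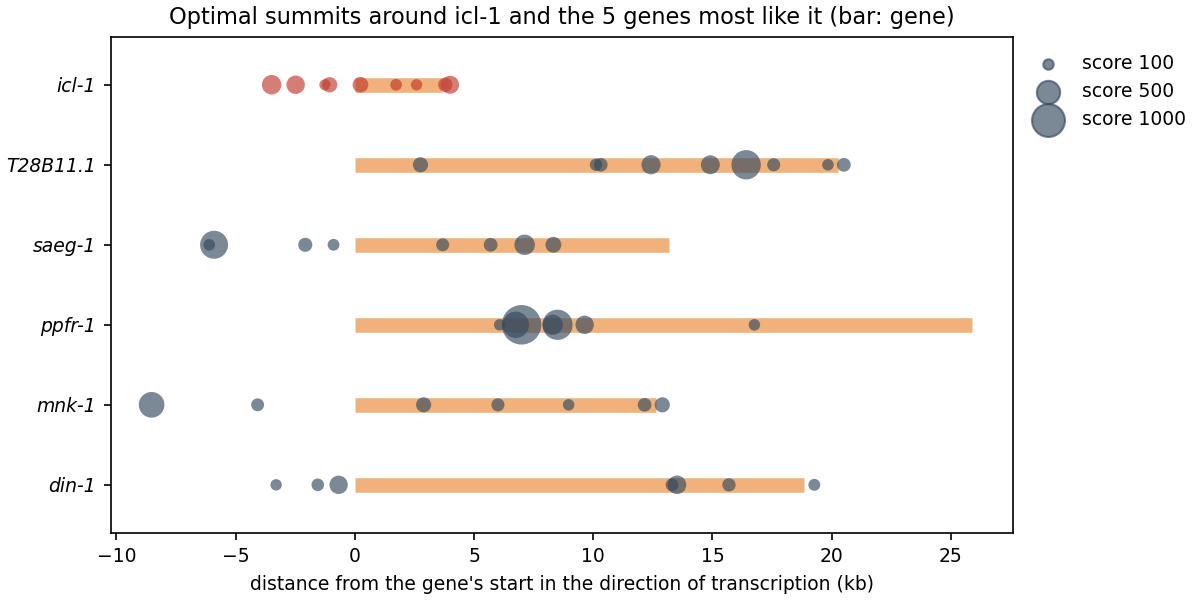
Optimal summits (dots, area in proportion to score) against the distance in kb from the gene's start in the direction of transcription, for icl-1 (red) and the 5 genes most like it, with bars for the gene bodies. The icl-1 summits span 7.49 kb on both sides of the start and continue past the end of the gene, and the other genes' summits span 10.7 to 22.6 kb.

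Near gene starts, 4 of the 9 optimal summits (regions 1, 2, 5 and 9) lay within 500 bp of a protein-coding start, where 37.7% did over all optimal regions. The starts were those of fbxb-72 for regions 1 and 2, icl-1 for region 5 and srh-2 for region 9. The other 5 lay 747 to 1720 bp from the nearest start.

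The 9 windows shared little identical sequence. The longest run of bases shared by any 2 of them, on either strand, was 10 bases, between regions 3 and 8, over 36 pairs. No window held a 50-base stretch that recurs elsewhere in the genome, which was so for 92.3% of all optimal windows. Bases masked in the RefSeq genome sequence made up 40.4% of region 2, 28.5% of region 6 and 19.9% of region 7, and none of the other windows. GC content was 53.0% in regions 3, 5 and 9 and 52.3% in region 4, and it was lowest in regions 1 and 2, at 35.8% and 35.1%. The median was 46.4%, against 47.7% over all optimal windows and 40.4% over weaker ones.

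The hexamer GAGAGA and the pentamer GACGC, chosen because earlier results showed them at optimal summits of this factor, were both present in regions 4 and 9 and in none of the other 7. Either sequence, on either strand, was found in 2 of the 9 windows, where 52.3% of all optimal windows and 23.8% of weaker windows held it. Both together were found in 13.6% of optimal and 2.42% of weaker windows. With 150 bp on each side 4 of the 9 held either, and 69.7% of all optimal windows did. The palindrome CACGTG, singled out after the windows were read, was in regions 5 and 8, and in 7.92% of all optimal and 4.07% of weaker windows. The 6-base sequence found in the most of the 9 windows by this search was AGAAAA, in 5 of them and in 37.3% of all optimal ones, level with 1 other. A match is a description of these letters and not of a bound site.

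Other genes of the same metabolism were read by whether an optimal summit lay within 500 bp of a start, which was so for 3.4% of all protein-coding genes. In the list of glyoxylate and TCA cycle genes, 9 of 28 had one, icl-1 among them. The place of icl-1 in this count follows from how the gene was chosen. Both aconitase genes did: aco-1, cytoplasmic, with a score of 115.9 (58.01 and 50.46 in replicates 1 and 2), and aco-2, mitochondrial, with 134.8 (86.6 and 49.98). Aconitase makes the isocitrate that isocitrate lyase splits. The isocitrate dehydrogenases also use isocitrate. Of those in the list, idhg-1, a subunit of the NAD enzyme, had a region at 200.2 (95.29 and 103.7). So did idh-2, an NADP enzyme, at 118.7 (57.0 and 58.84), while idh-1, idha-1, idhb-1 and idhg-2 had none.

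Further along the cycle, regions stood at dld-1, the dihydrolipoyl dehydrogenase shared by 2-oxoacid dehydrogenase complexes (145.1), and at sucl-1, a subunit of succinate-CoA ligase (177.7). The succinate dehydrogenase genes sdha-1 and mev-1 each had a region at 116.3. All 8 summits other than that of icl-1 lay upstream of the start, by 118 to 318 bp, while the icl-1 summit lay downstream by 225 bp. None of these 8 genes had more than 3 optimal summits within 10 kb. Genes of the list without a region included cts-1, the citrate synthase, fum-1, the fumarase, and the malate dehydrogenases mdh-1 and mdh-2. The list is described here without a test.

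Genes that supply or use the cycle's carbon were read the same way, against the same 3.4% of all protein-coding genes. In gluconeogenesis 1 of 18 had a region, pck-2, a phosphoenolpyruvate carboxykinase gene (142.9, with the summit 91 bp downstream of the start). Both this count and that of fatty acid oxidation, 2 of 50, were near the share of all genes. The latter were cpt-4, a carnitine acyltransferase family gene (159.5), and ech-5, an enoyl-CoA hydratase gene (149.0). A list of 15 genes of fat and fasting metabolism held regulators as well as lipase (lipl) and desaturase (fat) genes. In it daf-16, the FOXO factor (161.5), and hlh-30, the TFEB homolog (183.0), had a region. These 2 also had the highest count of the lists after icl-1, with 5 optimal summits each within 10 kb. Of the 110 list genes other than icl-1, 55.5% had none in that window, where 74.9% of all protein-coding genes had none.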

How the data were processed

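Peaks in the 2 samples were read from 4 lists deposited in narrowPeak format on ce11. Per the README deposited with them, each replicate list came from that replicate's alignments and 1 control, the pooled list from both replicates and 1 control, and the optimal list from an irreproducible discovery rate (IDR) threshold over the others. The sources used here do not name the aligner, caller or threshold. The deposited score is the caller's signal value, and the authors' lists also give a −log10 q value, here 1.68 to 2.78 for the 9 regions. Summits came from the deposited offset column.

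Members, lists and sequences searched were chosen with earlier results of these data known. Genes, starts (mRNA) and sequence came from RefSeq WBcel235 (WormBase WS298), and coordinates are 1-based. A gene's count is of optimal summits in it or within 10 kb. Named genes were icl-1, genes holding or nearest to its optimal summits, list genes with a region, and the 5 genes with the most optimal summits, 1 per group of overlapping windows. CACGTG, the neighbours srbc-40, srj-24 and srj-25 and the list genes without a region were named after their values were seen. No hypothesis test was run, and replicates enter through their own lists. Read depth is unknown. Counting functions were tested on simulated data. Alternatives changed the window, match distance, list and flank. Python 3.11.15, pandas 2.3.3 and NumPy 2.4.6 were used. Signal tracks and control libraries were not used here.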

Additional observations from a re-analysis of the deposited data

How the results depend on the processing

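Of 29 alternative values over 8 results, 24 stayed within 1.5 times the value reported, or within the spread between replicates for the summed score. The count of optimal summits at icl-1 was 9 with windows of 5 and 20 kb and by overlap, 6 in the 802 highest-scoring optimal regions, 7 without replicate 2, 10 without replicate 1 and 7 with neighbouring summits counted once. The summed score was 1957 with windows of 5 and 20 kb and by overlap, the alternatives tried for it. All 9 summits lay within 5 kb of icl-1, and the next lay 96649 bp to the left and 272447 bp to the right. These 3 settings therefore could not change the summed score or the count of 9. No setting with 1 replicate was tried for the summed score. Genes with at least as many optimal summits as icl-1 numbered 4, but 13 with windows of 20 kb, and 2 per kb of window. Among the 13 were the neighbours fbxb-72, srh-2, srbc-40, srj-24 and srj-25, whose windows held the same 9 summits as icl-1. T28B11.1 and saeg-1 were among them too, and the 13 were not grouped by locus. Leaving out a replicate gave 3 to 12 such genes, 12 without replicate 2. Counting neighbouring summits once, added after seeing the data, gave 6. Regions with a summit in both replicate lists fell from 8 to 5 with a match within 50 bp. Regions with GAGAGA or the pentamer GACGC rose from 2 to 4 within 150 bp, in a longer window. No paired analysis was possible because there is 1 group. Read depth is unknown and the lists carry no error, so differences between the regions' scores have no test.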
